A study of Mus musculus with 12 samples.

Results

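The immunity-related GTPases (IRG proteins) were followed as 7 genes, Irgm1, Irgm2, Igtp, Iigp1, Tgtp1, Tgtp2 and Ifi47, chosen by gene symbol from the 55487 features of the expression table. All 7 were found, and 6 of them passed the filter on low values that left 12364 genes for testing. The RNA of 12 samples of mouse natural killer (NK) cells was sequenced; these lymphocytes kill target cells and make interferon gamma. All 12 came from the strain B6.129S4-Ifngtm3.1Lky/J with the genotype mut/mut, a reporter line in which Ifng expression is read out by yellow fluorescent protein (YFP), and all are labelled HD IL-15, from cells primed with interleukin-15. The 3 groups of 4 samples were unstimulated cells, cells given anti-NK1.1 for 6 h and sorted as YFP-, and cells given the same antibody for the same time and sorted as YFP+. No time is listed for the unstimulated cells, so a part of culture time or handling in their differences from the other groups was not tested. Anti-NK1.1 binds an activating NK cell receptor, and because the sort used the reporter, the YFP+ and YFP- groups were chosen for their Ifng expression. Each group has 1 sample labelled f2, 1 labelled m2, 1 labelled m3 and 1 labelled m4, and nothing in the labels says whether samples of 1 label shared a mouse or what the age of the mice was. The p-values below set group differences against the spread between these samples, which are taken as independent unless stated otherwise.

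IRG proteins are large GTPases that interferons, above all interferon gamma, switch on in mouse cells. The GKS class, here Iigp1, Tgtp1, Tgtp2 and Ifi47, loads onto the membranes of vacuoles that hold parasites or bacteria such as Toxoplasma gondii and Chlamydia and helps to break them open. The GMS class, here Irgm1, Irgm2 and Igtp, sits on the cell's own membranes and holds the effectors in the inactive, GDP-bound state. Interferon gamma acts on promoters through gamma-activated sites (GAS), and through Irf1 and other factors that bind interferon-stimulated response elements (ISRE).

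The promoters of the members are shown before their levels. Over the 12 samples, the 15 pairs of tested members had Pearson r of 0.730 to 0.986. For deviations from the group means, r ran from -0.244 to 0.957. Whether the promoter motifs have a part in the levels was not tested. RefSeq (GRCm38.p6) windows of 300 bases, from 250 before to 50 after the transcript start, were matched for 6 of the 7 members. The windows were searched on both strands for the ISRE letters GAAANNGAAA and the GAS letters TTCNNNGAA, and these motifs were picked after the windows had been seen. In the 65-base stretches below, all upstream of the RefSeq start and written 5′ to 3′ in the direction of transcription, capitals mark the motif letters.
Irgm1 (chr11:48871426-48871490, minus strand): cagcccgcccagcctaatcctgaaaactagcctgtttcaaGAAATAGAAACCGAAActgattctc
Irgm2 (chr11:58214873-58214937, plus strand): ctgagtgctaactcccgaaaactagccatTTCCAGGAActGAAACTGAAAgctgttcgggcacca
Igtp (chr11:58199482-58199546, plus strand): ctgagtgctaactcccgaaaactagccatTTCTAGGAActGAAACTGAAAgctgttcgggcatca
Tgtp1 (chr11:48992299-48992363, minus strand): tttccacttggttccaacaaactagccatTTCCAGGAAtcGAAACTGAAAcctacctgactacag
Tgtp2 (chr11:49064258-49064322, minus strand): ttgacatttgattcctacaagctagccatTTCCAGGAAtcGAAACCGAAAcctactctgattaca

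Irgm2, Igtp, Tgtp1 and Tgtp2 each held the GAS letters, then 2 other bases, then the ISRE letters, read in the direction of transcription. Counted from the start, the ISRE letters began at base -64 in Irgm2, -34 in Igtp, -77 in Tgtp1 and -70 in Tgtp2. Irgm1 held the ISRE letters 2 times, in overlapping matches that begin at bases -30 and -24, and no GAS letters. The Ifi47 window held neither motif. It lies before the most upstream start, and Ifi47 has other annotated starts that the window does not cover. The stretches shown for Irgm1, Irgm2 and Tgtp1 lie inside their annotated genes, so more upstream starts of these members were not covered either. The ISRE letters occurred in 3.44% of all 32851 RefSeq windows of this length, the GAS letters in 8.30% and both in 0.454%. The spaced arrangement of GAS and ISRE occurred in 5 of the 32851 windows, those of these 4 members and of Gm12185, another IRG gene. The window of Gm12250, a further IRG gene, held the ISRE letters 2 times on the opposite strand and the GAS letters 1 time, in another arrangement. The promoters shown are related sequences: over the 65 bases shown, Irgm2 and Igtp were identical at 63, and Tgtp1 and Tgtp2 at 49. A letter match describes the sequence and does not show that a factor binds there.

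**Figure D1:**
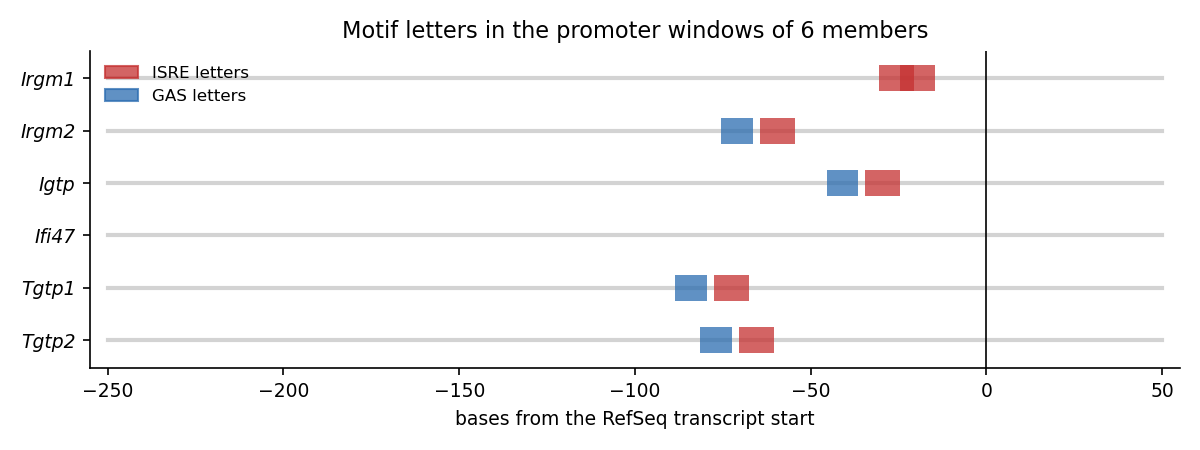
Positions of the ISRE letters (red) and GAS letters (blue) in the promoter windows of 6 members, on an axis of bases from the RefSeq transcript start (vertical line); grey lines span the 300 bases searched. In Irgm2, Igtp, Tgtp1 and Tgtp2 the blue and red boxes lie side by side with 2 bases between them, Irgm1 has 2 overlapping red boxes, and Ifi47 has none.

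The libraries held 32.1 to 54.2 M (mega) reads, so that 3 reads, the smallest level taken as shown, corresponded to 0.0553 to 0.0933 CPM, the unit of reads scaled to the library total. All 8 NK cell markers had reads in each group, with summed levels of 8124 to 10889.7 CPM without stimulation, 15396 to 18701 CPM in the YFP- group and 23976 to 35034 CPM in the YFP+ group. Gzmb, the granzyme B gene, made up most of these sums, with means of 6165, 12849 and 24088 CPM in the 3 groups. Of the 8 markers, 1 (Gzmb) was called higher and 4 lower in YFP+ than in YFP- cells, beside 3.28% and 18.5% of all genes. The 4 were Klrb1c at -3.59 in log2 CPM, Ncr1 at -0.85, Eomes at -0.78 and Klrd1 at -0.71. Klrb1c encodes NK1.1, the receptor the antibody binds. Ifng itself, on which the sort was made, averaged 3.92 CPM without stimulation, 45.8 CPM in the YFP- group and 329 CPM in the YFP+ group. In these bulk samples, fewer cells of a type and less RNA per cell cannot be told apart. Features of the rRNA kind took 5.13 to 17.8% of the reads of a library. With Lars2, Mir6236 and Gm23935 counted too, the share was 27.4 to 35.3% without stimulation. It was 15.9 to 30.3% in the YFP- group and 13.7 to 29.8% in the YFP+ group.

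Compared per length of annotated exon (GENCODE M21), the members spanned a wide range of levels. In unstimulated cells Ifi47 stood highest, at 52.8 ± 4.03 CPM per kb (SD, n = 4), followed by Igtp at 15.8 ± 2.30, Tgtp2 at 8.24 ± 1.97 and Irgm1 at 1.59 ± 0.156. Irgm2, at 0.983 ± 0.225, and Tgtp1, at 0.920 ± 0.312, overlapped each other, and Iigp1 came last at 0.0221 ± 0.00596. In YFP- cells the order was Ifi47, Igtp, Tgtp2, Irgm1, Tgtp1, Irgm2 and Iigp1, with the ranges of Irgm1 and Tgtp1 overlapping. The YFP+ group kept Ifi47 at 16.7 ± 3.19 and Igtp at 5.92 ± 2.09 CPM per kb at the top, but Tgtp2, at 0.667 ± 0.355, now ranked below Irgm1, at 0.865 ± 0.177, with overlapping ranges. The single levels and ranks of Tgtp1 and Tgtp2 rest on how reads that match both genes were counted, which is not known.

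**Figure D2:**
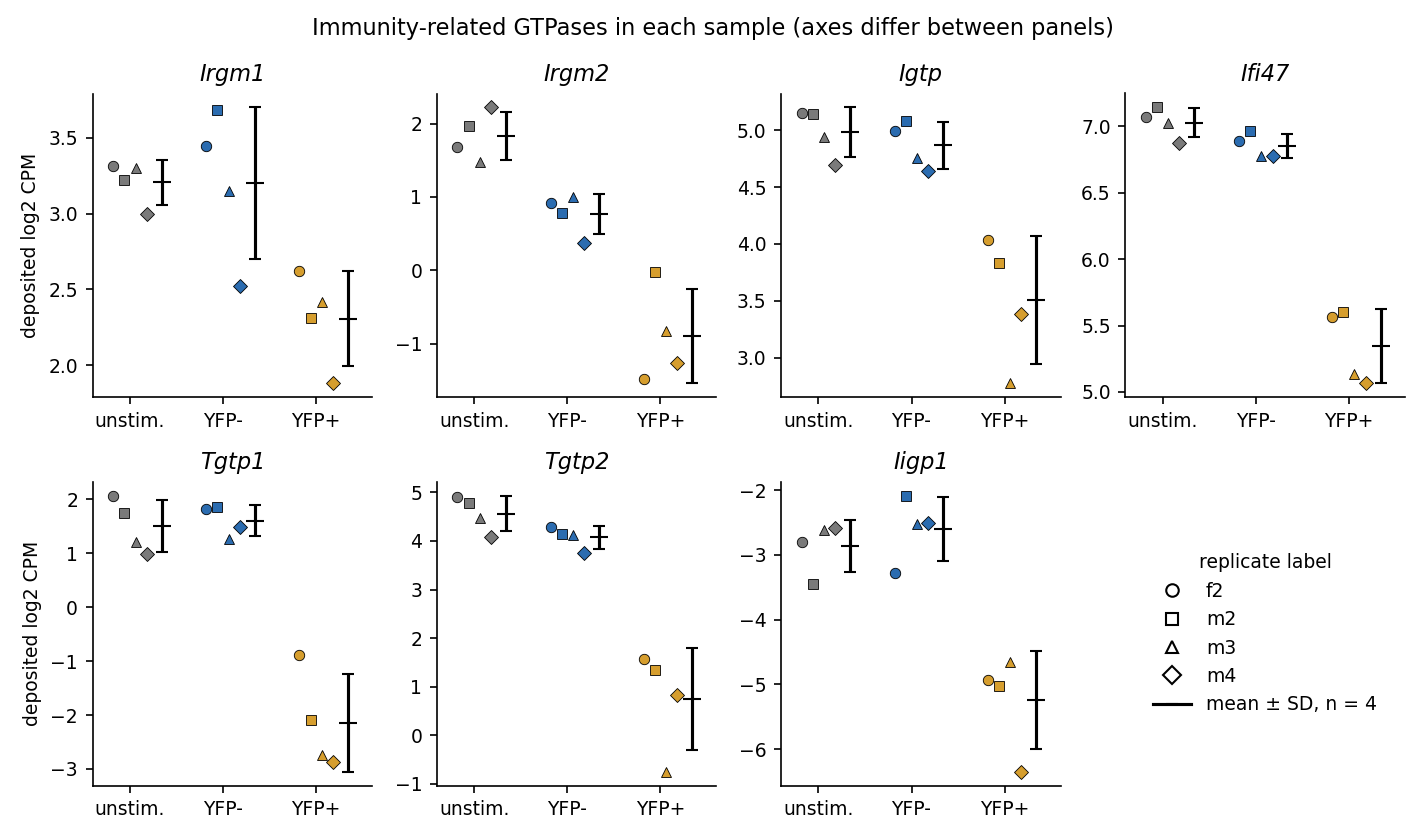
Deposited log2 CPM of the 7 members in each sample, with 1 panel per gene and its own axis; symbols give the replicate label, colours the group, and the bar the mean ± SD of 4 samples. The YFP+ samples lie below the other 2 groups in every panel but that of Irgm1, where the lowest YFP- sample falls within the YFP+ range.

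Of the GMS regulators, Irgm1 is the member needed for mice to resist many vacuolar pathogens. It maps to chromosome 11, 48861968 to 48871683, minus strand (GRCm38). Irgm1 stood at 9.91, 9.31, 9.84 and 7.95 CPM in the unstimulated samples f2, m2, m3 and m4, at 10.9, 12.8, 8.85 and 5.73 CPM in the YFP- samples and at 6.13, 4.96, 5.33 and 3.67 CPM in the YFP+ samples. The YFP+ samples were low, and the YFP- sample m4 fell among them, so that these 2 groups overlapped, while the unstimulated and YFP+ groups did not. Irgm1 was lower in YFP+ than in YFP- cells, with a difference of -0.89 ± 0.23 in log2 CPM (SE; limma adjusted p = 0.0147) in 4 of 4 labels; the means were 2.31 ± 0.31 (SD, n = 4) and 3.20 ± 0.50. This call was lost without label f2 (adjusted p = 0.0506), m2 (0.114) or m3 (0.0537), without the filter on low values (0.101) and with quantile normalization (0.0701).

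Irgm2 is a regulator found at the Golgi. It lies at chromosome 11, 58199618 to 58222782, plus strand, and shares 162 exon bases, 4.39% of its exons, with Igtp on the same strand. In the order f2, m2, m3 and m4, its levels were 3.20, 3.89, 2.76 and 4.65 CPM without stimulation, 1.87, 1.70, 1.98 and 1.28 CPM in YFP- samples, and 0.347, 0.977, 0.552 and 0.404 CPM in YFP+ samples. The 3 groups formed 3 separate steps with no overlap, and m2 was the highest of the YFP+ samples. Irgm2 was lower in YFP- than in unstimulated cells, at -1.07 ± 0.31 in log2 CPM (SE; limma adjusted p = 0.0117), and lower again in YFP+ than in YFP- cells, at -1.66 ± 0.31 (adjusted p = 0.00212), each in 4 of 4 labels. The step between unstimulated and YFP- cells was not called without label m4 (adjusted p = 0.102) or without the filter on low values (0.0599).

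Igtp, also called Irgm3, is the regulator of the endoplasmic reticulum and lipid droplets. It spans 58199556 to 58207591 of chromosome 11, plus strand. Igtp measured 35.6, 35.5, 30.8 and 25.8 CPM in the unstimulated samples, 31.9, 33.9, 27.0 and 24.9 CPM in the YFP- samples, and 16.4, 14.3, 6.82 and 10.4 CPM in the YFP+ samples. All 4 YFP+ samples lay below all 8 others, which overlapped, and m3 was the lowest. The difference between YFP+ and YFP- cells was -1.36 ± 0.23 in log2 CPM (SE; limma adjusted p = 0.0011).

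Among the GKS effectors, Ifi47 (Irgd) had the most reads, 1080 to 6165 per library. Its gene lies at chromosome 11, 49076587 to 49096974, plus strand, and shares 111 exon bases with Olfr56 on the same strand and 106 with the pseudogene Gm12188 on the other. Ifi47 levels were 134, 141, 129.9 and 117 CPM in unstimulated samples, 118, 125, 109.8 and 109.8 CPM in YFP- samples, and 47.3, 48.7, 35.2 and 33.6 CPM in YFP+ samples. The YFP+ samples were far below the rest, with f2 and m2 above m3 and m4, and the unstimulated and YFP- ranges overlapped. With the smallest spread of the members, Ifi47 was 2.85-fold lower in YFP+ than in YFP- cells, a difference of -1.51 ± 0.14 in log2 CPM (SE; limma adjusted p = 1.2e-05).

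Tgtp1 and Tgtp2 are neighbouring, nearly identical genes for the effector Irgb6, at 48985327 to 48994172 and 49057194 to 49064206 of chromosome 11, both on the minus strand. Of the 150-base stretches in annotated transcripts, 1907 of 3052 (62.5%) in Tgtp1 and 1907 of 2789 (68.4%) in Tgtp2 occur in the other gene. Tgtp1 also shares 223 exon bases, 6.96% of its exons, and 74 of its stretches with Gm12185 on the same strand. How reads that match both were counted is not given in the sources used here, so their split between the genes is uncertain. Tgtp1 was listed at 4.17, 3.34, 2.31 and 1.97 CPM in unstimulated samples, 3.52, 3.61, 2.40 and 2.77 CPM in YFP- samples, and 0.531, 0.221, 0.138 and 0.124 CPM in YFP+ samples, the last group with 26, 12, 5 and 4 reads. Tgtp2 was listed at 29.9, 27.6, 22.3 and 17.0 CPM in unstimulated samples, 19.5, 17.6, 17.4 and 13.4 CPM in YFP- samples, and 2.96, 2.53, 0.580 and 1.77 CPM in YFP+ samples. For both genes the YFP+ samples were well below the others, m3 was the lowest for Tgtp2, and the unstimulated and YFP- samples overlapped. The YFP+ minus YFP- difference was -3.75 ± 0.41 in log2 CPM for Tgtp1 (SE; limma adjusted p = 4.4e-05) and -3.32 ± 0.40 for Tgtp2 (adjusted p = 8.0e-05).

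Summing the reads of the pair removes the question of the split between them, though not that with Gm12185 or that of shared reads that may have been left uncounted. The sum stood at 34.1, 31.0, 24.6 and 18.9 CPM in unstimulated samples, 23.1, 21.2, 19.8 and 16.2 CPM in YFP- samples, and 3.49, 2.75, 0.718 and 1.90 CPM in YFP+ samples. No YFP+ sample reached the lowest of the other 8. The summed pair was lower in YFP+ than in YFP- cells, at -3.38 on the scale of log2(CPM + 0.01) (2-sided exact permutation p = 0.0286, the smallest that 4 against 4 allow, and 0.0429 adjusted over 3 comparisons). Against unstimulated cells the YFP+ difference was -3.79 (exact permutation p = 0.0286, adjusted 0.0429), and between YFP- and unstimulated cells it was -0.41 (p = 0.143). In limma, with the pair as 1 gene, the YFP+ minus YFP- difference was -3.38 (95% interval -4.19 to -2.56, adjusted p = 5.7e-05).

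The share of the pair's reads listed under Tgtp1 was 9.39 to 12.2% without stimulation and 12.1 to 17.1% in the YFP- group, and ranged from 6.56 to 19.2% in YFP+ samples. With 26 reads in all, the YFP+ sample m3 had a 95% Wilson interval of 8.51 to 37.9%, and m4 one of 2.58 to 15.7%, which cover counting error only. The YFP+ shares overlapped those of both other groups, and the split was therefore not read as a result.

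**Figure D3:**
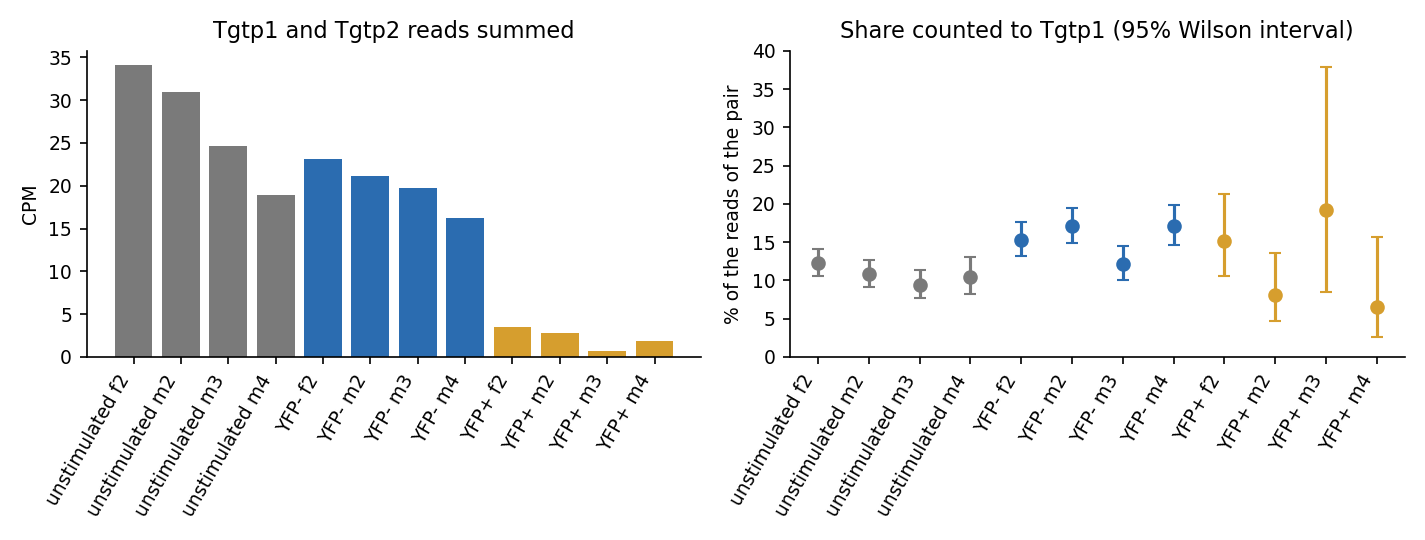
Left, summed CPM of Tgtp1 and Tgtp2 in each of the 12 samples (bars from 0); right, percent of the pair's reads listed under Tgtp1 with its 95% Wilson interval. The sums lie between 0.718 and 3.49 CPM in YFP+ samples and at 16.2 CPM or more in the others, while the YFP+ shares have wide intervals.

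The pair was set against the other members in the same library, a ratio that no scaling of the library can change. The log2 ratio of the summed pair to Ifi47 was -2.30 ± 0.28 (SD, n = 4) without stimulation, -2.54 ± 0.17 in the YFP- group and -4.42 ± 0.82 in the YFP+ group. To Igtp, the log2 ratio was -0.26 ± 0.17, -0.55 ± 0.11 and -2.58 ± 0.46 in the same order. In both cases the YFP+ ratios overlapped neither other group, as was so for the ratio to Irgm1, while the ratio to Irgm2 overlapped. These 3 ratios had a 2-sided exact permutation p of 0.0286 for YFP+ against YFP-, and 0.0571 after adjustment over 12 tests, so none passed 0.05. This test was added after the data had been seen.

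Iigp1 (Irga6), the best studied effector of the class, was the member close to the limit of detection. It is the only one outside chromosome 11, at chromosome 18, 60376027 to 60392634, plus strand. Iigp1 had 5, 3, 6 and 5 reads in the unstimulated samples, 4, 11, 7 and 8 in the YFP- samples, and 1, 1, 1 and 0 in the YFP+ samples. No YFP+ sample reached the lowest of the others, but the gene failed the filter and was not tested. Summed over a group, its level was 0.128 CPM (exact Poisson 95% interval 0.0771 to 0.200) without stimulation, 0.161 CPM (0.109 to 0.230) in the YFP- group and 0.0175 CPM (0.00361 to 0.0511) in the YFP+ group. The YFP- level was 9.22 times the YFP+ level, with an exact 95% interval of 2.87 to 47.2 that covers counting error and not the spread between samples.

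In YFP+ against YFP- cells, 6 of the 6 tested members were called lower (adjusted p under 0.05, limma), where 18.5% of the 12364 genes tested were called lower and 3.28% higher. The median difference of the 6 was -1.58 in log2 CPM, beside -0.19 over all genes tested. Irgm2 and Tgtp1 had no YFP+ sample above the filter's log2 CPM of 0. They passed it only through the groups where they were higher, and both the count and the median include them. Each member was lower in 4 of 4 labels, and the sign held for all 6 under each scaling tried. Over all genes, 405 were called higher and 2286 lower, a split that moved to 1505 and 1491 when each sample was centred on its median, to 1163 and 1430 with quantile normalization and to 1015 and 1675 with trimmed-mean scaling. Centring moved the median of all genes to 0.07.

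Between YFP- and unstimulated cells, 1 of the 6 tested members, Irgm2, was called lower and none higher, against 20.9% of all genes called lower and 30.2% higher. The median difference of the 6 members was -0.15 in log2 CPM, beside 0.14 over all genes. The 95% interval of the difference ran from -0.51 to 0.49 for Irgm1, from -0.62 to 0.39 for Igtp, from -0.47 to 0.12 for Ifi47, from -0.77 to 0.98 for Tgtp1 and from -1.34 to 0.36 for Tgtp2. Leaving rRNA-like features with Lars2, Mir6236 and Gm23935 out of the library totals turned the split of all genes from 3735 higher and 2586 lower to 3070 and 3439. Under that scaling, chosen after the data had been seen, Ifi47 was also called lower, at -0.36 (limma adjusted p = 0.0113), as it was with quantile normalization, at -0.42 (0.0023), and with centring, at -0.31 (0.0227). Tgtp2 was called lower when only the 8 samples of this comparison were fitted, at -0.49 (limma adjusted p = 0.0376).

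In YFP+ against unstimulated cells, all 6 tested members were called lower, where 33.3% of all genes were called lower and 27.5% higher. Irgm1 differed by -0.90 in log2 CPM (limma adjusted p = 0.00423), Igtp by -1.48 (9.7e-05), Ifi47 by -1.68 (2.1e-07) and Irgm2 by -2.73 (5.3e-06). Tgtp1 and Tgtp2 had the largest differences, -3.65 (adjusted p = 3.8e-06) and -3.81 (2.0e-06). The median of the 6 was -2.21, beside -0.03 over all genes. Irgm2 and Tgtp1, which passed the filter only through the other groups, are among the 6 here as well. This comparison shares its YFP+ samples with the comparison to YFP- cells, so the 2 are not separate evidence.

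**Figure D4:**
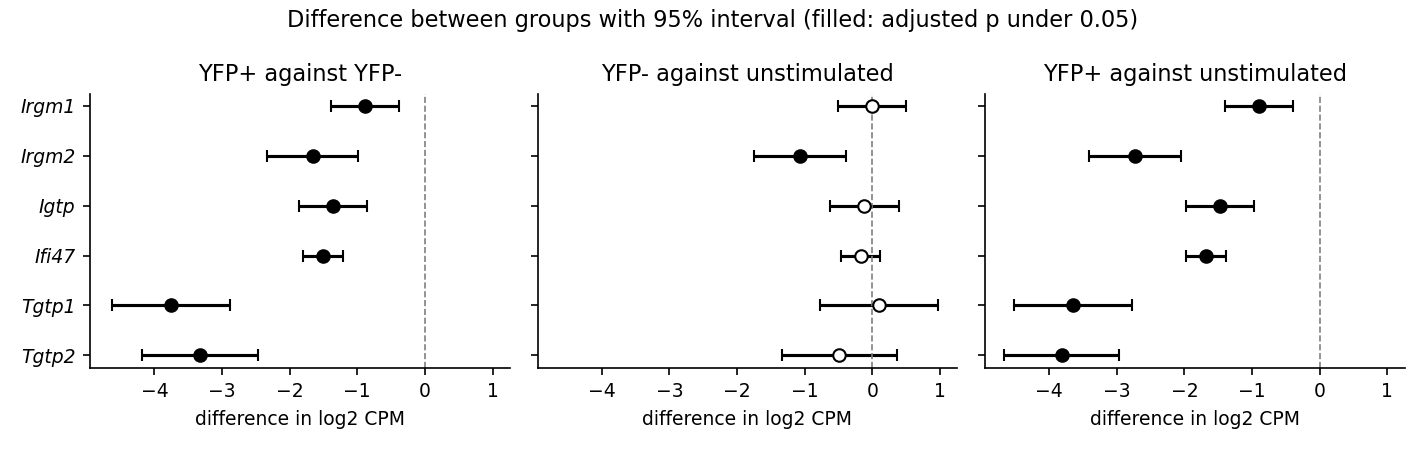
Difference in log2 CPM between groups for the 6 tested members, with its 95% interval, in 3 comparisons; filled points have a limma adjusted p under 0.05. All 6 points lie below 0 in both comparisons that hold YFP+ cells, and Irgm2 is the 1 filled point between YFP- and unstimulated cells.

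In YFP+ against YFP- cells, the tested macrophage and dendritic cell markers were lower like the members, as were 4 of the 8 NK cell markers. Of 9 macrophage and dendritic cell markers, 5 were tested (Cd68, Cd74, Itgax, H2-Aa and H2-Ab1). All 5 were called lower in YFP+ than in YFP- cells, beside 18.5% of all genes. The summed level of the 9 was 181 to 223 CPM without stimulation, 128 to 165 CPM in the YFP- group and 53.8 to 67.4 CPM in the YFP+ group. Cd68, Cd74, Itgax and H2-Ab1 made up most of these sums, with YFP- means of 34.6, 39.1, 39.02 and 27.8 CPM. Whether their reads came from macrophages and dendritic cells or from the NK cells themselves was not tested. Lyz2 had no read in the YFP- group and Adgre1 none in the YFP+ group. Between YFP- and unstimulated cells, Cd74 and H2-Aa were called higher, by 1.95 and 1.16 in log2 CPM. H2-Ab1, at -1.70, and Cd68, at -0.70, were called lower there, and Itgax was not called. The 6 T cell markers summed to 45.8 to 106, 39.7 to 62.7 and 22.6 to 45.9 CPM in the 3 groups, and 4 B cell markers to at most 4.19, 2.86 and 1.37 CPM. Between YFP+ and YFP- cells the 2 tested T cell markers, Cd3d (-0.61, limma adjusted p = 0.0833) and Cd3g (-0.73, 0.138), were not called. Nor was the 1 tested B cell marker, Cd79b (-1.79, 0.117). All 3 were called lower in YFP+ than in unstimulated cells, beside 33.3% of all genes. Granulocyte and erythroid markers failed the filter and stayed at or below 0.658 CPM in sum. The part of other cells in the differences of the members was not tested.

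Within a group, the members deviated from their group mean partly by library. In the YFP+ group, f2 was above the mean for 5 of the 6 tested members and m2 for all 6, while m4 was below it for 5 and m3 for 4. The mean deviation of the 6 ran from -0.48 in log2 CPM in YFP+ m3 to 0.43 in YFP+ f2, and from -0.30 to 0.19 over the YFP- samples. Irgm2 did not follow the others here, being lowest in YFP+ f2 and highest in unstimulated m4.

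Of 12 other IRG genes listed, 11 were in the table and 4 were tested. In YFP+ against YFP- cells 3 of the 4 were called lower, beside 18.5% of all genes. Gm12250, which encodes the effector Irgb10 though the table lists it as a processed pseudogene, differed by -1.41 ± 0.21 in log2 CPM (SE; limma adjusted p = 0.00046) and by -0.61 (0.028) between YFP- and unstimulated cells. Another IRG gene, 9930111J21Rik2, differed by -1.78 in each of these comparisons (adjusted p = 0.0011 and 0.00032), and 9930111J21Rik1 by -2.67 (0.040) and -1.79 (0.097). In YFP+ cells the means of 9930111J21Rik2 and 9930111J21Rik1 were low, at 0.483 and 0.250 CPM. Irgq, a divergent member that interferon is not known to induce, differed by -0.26 (adjusted p = 0.48) and -0.28 (0.36).

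Along the pathway from interferon gamma to these genes, the ligand and its relays did not move alike. Ifng was higher in YFP+ than in YFP- cells by 2.86 ± 0.13 in log2 CPM, a contrast that the sort itself set, and 3.53 ± 0.13 higher in YFP- than in unstimulated cells (SE; limma adjusted p = 5.3e-10). Ifngr1, the ligand-binding chain of the receptor, differed by -2.33 between YFP+ and YFP- cells (adjusted p = 0.0031) and by -0.96 between YFP- and unstimulated cells (0.10), and Ifngr2, the signalling chain, failed the filter. Irf1 differed by -1.91 (limma adjusted p = 0.0014) and -0.23 (0.59) in these comparisons. Of 13 tested genes of interferon gamma signalling, 1 (Ifng) was called higher and 7 lower in YFP+ than in YFP- cells. The shares over all genes were 3.28% and 18.5%. Between YFP- and unstimulated cells 4 were called higher and 4 lower, beside 30.2% and 20.9% of all genes. In YFP+ against unstimulated cells 3 were called higher and 8 lower, beside 27.5% and 33.3% of all genes. The largest differences of the last comparison were those of Ifng, at 6.39, and Ciita, the class II transactivator, at -3.96. The YFP+ mean of Ciita was 0.201 CPM. Nlrc5, the class I transactivator, had the largest fall of the called genes between YFP- and unstimulated cells, -1.69.

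The guanylate-binding proteins join IRG proteins on vacuoles. In YFP+ against YFP- cells 8 of the 8 tested were called lower, beside 18.5% of all genes. Their median was -2.11 in log2 CPM. Gbp6, at -2.88, and Gbp2, at -2.63, differed the most. The YFP+ mean of Gbp6 was 0.114 CPM, so it passed the filter only through the other groups. Between YFP- and unstimulated cells 1 of the 8, Gbp3, was called higher, by 1.08, and none lower, beside 30.2% and 20.9% of all genes. In YFP+ against unstimulated cells 8 of 8 were called lower, led by Gbp6 at -3.32 and Gbp9 at -2.38, beside 33.3% of all genes. Of 18 other interferon-stimulated genes tested, 13 were called lower and 1 higher in YFP+ against YFP- cells, beside 18.5% and 3.28% of all genes. Cxcl10, a chemokine, stood at -3.75 and Rtp4 at -3.16. Their YFP+ means were 0.473 and 0.776 CPM, so neither could pass the filter on YFP+ samples alone. Against unstimulated cells, YFP- samples had 4 of the 18 higher and 7 lower, beside 30.2% and 20.9% of all genes. Cxcl10 stood at 2.82 there and the immunoproteasome subunit gene Psmb9 at -1.52. YFP+ samples had 10 of the 18 lower than unstimulated cells and none higher, beside 33.3% and 27.5% of all genes. Rtp4 stood at -4.05 and Psmb9 at -2.80 there.

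The 3 tested type I interferon receptor and kinase genes were all called lower in YFP+ than in YFP- cells, beside 18.5% of all genes. Ifnar2 differed by -1.16 and Tyk2 by -0.57. Between YFP- and unstimulated cells Ifnar2 differed by -0.69 and Tyk2 by 0.40, both called, and in YFP+ against unstimulated cells Ifnar2 differed by -1.84 and Ifnar1 by -0.55. GKS effectors need the ATG8 conjugation system to reach the vacuole, listed here as 5 genes for ATG8 proteins (Map1lc3a, Map1lc3b, Gabarap, Gabarapl1 and Gabarapl2) and 5 for the machinery that attaches them to membranes. Of these 10, all tested, 7 were called higher and none lower in YFP- than in unstimulated cells, beside 30.2% of all genes higher, with Gabarapl1 at 1.87 and Atg7 at 1.14. In YFP+ against YFP- cells 2 of the 10 were called lower, near the 18.5% of all genes, Map1lc3b at -0.67 and Gabarap at -0.29, and the median of the 10 was -0.19, as over all genes. In YFP+ against unstimulated cells 5 were called higher and 2 lower, beside 27.5% and 33.3% of all genes. Gabarapl1, at 2.11, and Atg16l1, at 0.78, led those called higher. No test set this list against other genes.

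**Figure D5:**
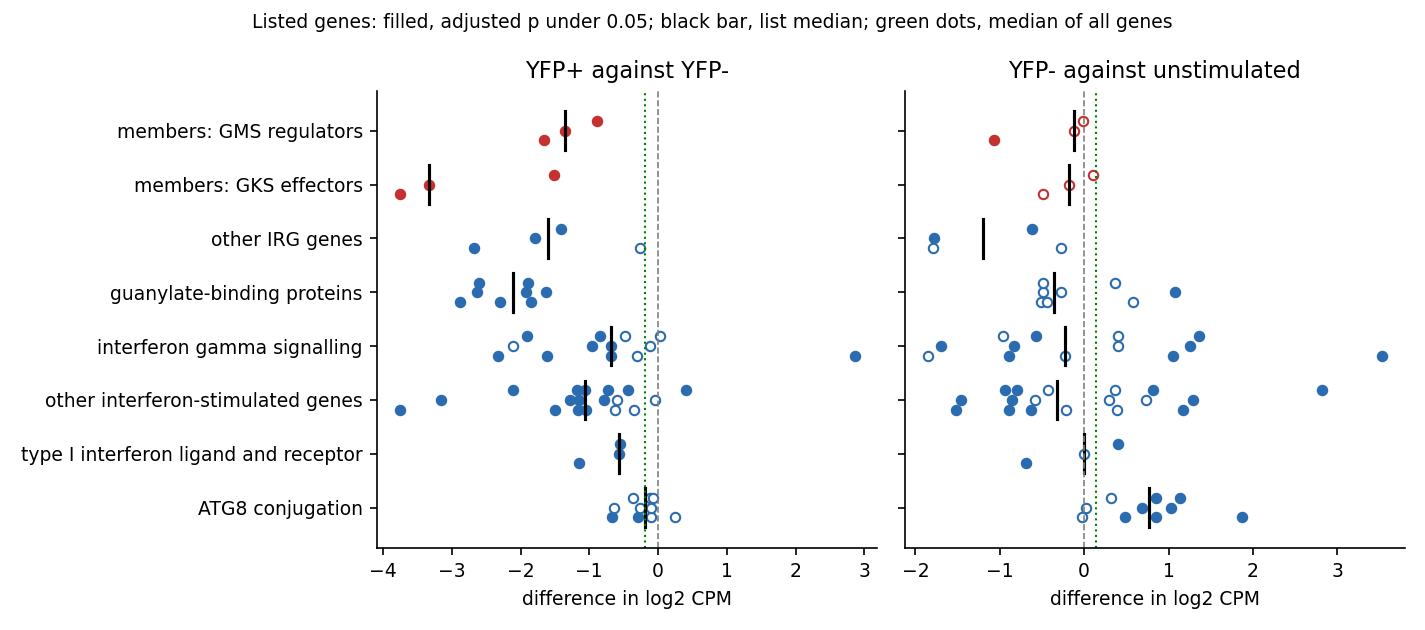
Difference in log2 CPM of each tested gene of the members (red) and of 6 related lists (blue), for YFP+ against YFP- (left) and YFP- against unstimulated cells (right); filled points have a limma adjusted p under 0.05, black bars are list medians and the green line is the median of all genes. Both member classes, the other IRG genes, the guanylate-binding proteins and the type I interferon list lie wholly below 0 on the left. The ATG8 conjugation genes lie mostly above 0 on the right.

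The 10 named genes whose pattern over the 12 samples was most like the mean of the 6 tested members had Pearson r of 0.982 to 0.989, a description over samples that fall into 3 groups and share their libraries. They were, from the highest, Cdc20, an activator of the anaphase-promoting complex, Lpxn, Gab3, Creb1, Troap, Rab37, Rhog, Pvrig, Gbp7 and Fam110a. Each was lower in YFP+ than in YFP- cells, with differences from -0.97 (Creb1) to -2.40 (Troap) in log2 CPM. Irf1 ranked 44 of 12364 genes in this order, with r = 0.970, and Ifng had r = -0.859.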

How the data were processed

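RNA from 12 samples was made into cDNA libraries with the SMARTer Ultra Low kit, which does not mark strand, and read as 150-base pairs, per the labels' protocols. The submitters' processing notes name bcl2fastq, STAR 2.7.9a, Subread, featureCounts 2.0.3 and GRCm38; settings are not given in the sources used here. The authors deposited moderated log2 CPM, a log2 score of read counts scaled to the library total with a prior, per the file headers. Of 55774 lines, 287 repeats were dropped. Whole reads were recovered for 100% of values (tolerance 0.01 reads).

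Genes that exceeded a log2 CPM of 0 in 4 samples or more were fitted in limma 3.58.1 (R 4.3.3): lmFit on all 12 samples with 1 coefficient per group, eBayes with an intensity trend, Benjamini-Hochberg adjustment over 12364 genes, and a call at adjusted p under 0.05. The fit was tested on simulated data. CPM, ratios, exact tests and figures used Python 3.11.15, scipy 1.17.1 and matplotlib 3.10.9. The motif search, promoter windows and gene models used RefSeq and GENCODE M21 on GRCm38.

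The members, lists and alternatives were chosen with earlier results of these data known. Named are all members, other tested IRG genes, Ifng, Ifngr1, Ifngr2 and Irf1, per comparison and list other than the marker lists the 2 called genes with the largest difference, and the 10 genes most like the members. Single markers and the few other genes named fall outside this rule and were picked from their lists after their values were seen. A gene that this rule names is not reported here.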

Additional observations from a re-analysis of the deposited data

How the results depend on the processing

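Of 294 alternative values for the 6 tested members in 3 comparisons, 278 kept direction and side of the threshold, 7 lost a call, 4 gained one and 5, all of uncalled differences, turned sign; 12 of the 18 member values kept both throughout. Between YFP- and unstimulated cells, Irgm1 turned to 0.04 without label m3 and 0.15 without m4 (range over the labels left out -0.16 to 0.15), and Tgtp1 to -0.036 with centring, -0.079 without rRNA-like features, Lars2, Mir6236 and Gm23935 (chosen after seeing the data) and -0.027 without m4 (range -0.027 to 0.22); the cause was not tested. The members called there, 1, became 2 with only the 8 samples compared, quantile normalization, centring or the rRNA-like features and those 3 left out, 0 without the filter or with a filter at log2 CPM above 2 (which removes Irgm2), and 0 to 1 when 1 label was left out. With a filter at log2 CPM above 2, 4 of 4 tested members were called in both comparisons that hold YFP+ cells; without the filter 6 of 7 were called against YFP- and 7 of 7 against unstimulated cells. Of 6 tested, 5 were called against YFP- cells with quantile normalization and without f2, m2 or m3, Irgm1 being the call lost. Without the filter, Iigp1 was called in both (limma adjusted p = 0.0149 and 0.00568). A pseudocount of 1 CPM shrank the YFP+ minus YFP- difference to -0.80 for Irgm2 and -1.70 for Tgtp1, by its construction. For the summed Tgtp1 and Tgtp2 reads, leaving out 1 label gave -3.60 to -2.92 for YFP+ against YFP- and -3.96 to -3.36 against unstimulated, where the exact permutation p can only reach 0.1. With the replicate block, the sign-flip test gave -3.38 and -3.79 (exact p = 0.125, the smallest 4 pairs allow). Same-label samples correlated at 0.054 to 0.374 for YFP+ with YFP- (m2, m3 and m4 best with their own label, f2 not), at -0.042 to 0.375 for YFP+ with unstimulated (f2 and m4 best) and at -0.059 to 0.100 for YFP- with unstimulated (f2 best). No comparison had all 4 above 0.1, so the labels were not taken as pairs, though some values hint at a shared source. The block left the counts of called members at 6, 1 and 6. Of all genes, it moved the calls for YFP+ against YFP- from 405 higher and 2286 lower to 446 and 2652, and leaving out m2 to 151 and 1420. Depth limits Iigp1, with 0 to 11 reads per library.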
